A study of Rattus norvegicus with 6 samples.

Results

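The 9 genes described here, Plau, Plaur, Plat, F3, Thbd, Procr, Tfpi, Vwf and Anxa2, regulate blood clotting and the removal of clots. They were taken by symbol from a table of 28293 genes, and all 9 were found, each in 1 row. RNA of rat myocardium was sequenced from 3 sham rats and 3 rats with myocardial ischemia/reperfusion injury (MI/RI, labelled I/R). All rats were male and wild type, and their age is not given in the labels. MI/RI was made by tying the left anterior descending artery of the heart for 30 min, followed by reperfusion for 6 h. The same times stand in the labels of the sham rats, which had a sham operation. Which part of the heart was taken, the ischemic zone or tissue away from it, is not stated, which limits the MI/RI group as a model of the injured zone.

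Clotting starts where tissue factor, the product of F3, meets factor VII of the plasma. Tissue factor pathway inhibitor (Tfpi) blocks that step, thrombomodulin (Thbd) and the endothelial protein C receptor (Procr) turn thrombin towards activating the anticoagulant protein C, and von Willebrand factor (Vwf) tethers platelets to the vessel wall and carries factor VIII. Clots are dissolved by plasmin, which tissue-type (Plat) and urokinase-type (Plau) plasminogen activator cut from plasminogen. The urokinase receptor (Plaur) and annexin A2 (Anxa2), the latter joined to S100a10, hold these reactions on cell surfaces. In the heart, endothelium carries much of this machinery and keeps the vessels open, while tissue factor is kept apart from the blood until a vessel is injured.

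Promoter sequences of RefSeq (build GRCr8) were used here for 5 of the 9 genes, and the 250 bases before the start of transcription were read for each. The letters TGANTCA, where N is any base, include the sequence that AP-1 transcription factors bind but are broader than it. A match to TGANTCA stands in the windows of Plaur, Procr and Anxa2, which are printed because they hold it. The windows of Plau and of both starts of Tfpi lack it. Of all 33469 windows of this length, 6.34% hold TGANTCA, which reads the same on both strands. The windows lie on the plus strand at chr1:89181113-89181362 (Plaur), chr3:164714477-164714726 (Procr) and chr8:78986002-78986251 (Anxa2), are given 5′ to 3′, and have the match in capitals.
Plaur: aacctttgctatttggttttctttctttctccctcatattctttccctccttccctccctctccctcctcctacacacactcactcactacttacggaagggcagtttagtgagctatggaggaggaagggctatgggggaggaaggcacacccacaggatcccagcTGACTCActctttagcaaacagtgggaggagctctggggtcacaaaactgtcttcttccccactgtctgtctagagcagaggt
Procr: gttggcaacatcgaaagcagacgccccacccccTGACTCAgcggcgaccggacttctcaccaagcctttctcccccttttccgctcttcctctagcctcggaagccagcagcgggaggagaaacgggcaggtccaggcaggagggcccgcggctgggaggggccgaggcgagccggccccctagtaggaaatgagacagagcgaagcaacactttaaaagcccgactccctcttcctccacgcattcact
Anxa2: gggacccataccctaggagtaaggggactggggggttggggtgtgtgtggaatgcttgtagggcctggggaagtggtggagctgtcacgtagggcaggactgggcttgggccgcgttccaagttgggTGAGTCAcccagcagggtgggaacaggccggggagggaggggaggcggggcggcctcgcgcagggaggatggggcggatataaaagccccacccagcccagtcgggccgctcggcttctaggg
The match begins 83 bases before the start of Plaur, 217 bases before that of Procr and 123 bases before that of Anxa2. These letters are a description of the sequence, and binding was not measured here. For Plat, F3, Thbd and Vwf no promoter sequence was at hand, so whether theirs hold TGANTCA was not examined.

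Levels are given in FPKM, fragments scaled to the length of the gene and the size of the library, so they can be compared between genes of a rat. Between rats they also depend on the scaling, as the summed FPKM ran from 731063 to 928941. The whole fragment counts behind the values could be recovered from their steps for 99.7% of the 16822 genes with a value in at least 3 rats. Over all genes with recovered counts they came to 8915768 to 11184247 fragments in sham rats and 11855875 to 15499732 in MI/RI rats. These sums are not library sizes. Relative to sham replicate 1, the library size estimated from the steps was 1.181 and 1.136 in sham replicates 2 and 3. In MI/RI replicates 1, 2 and 3 it was 0.873, 0.935 and 0.881, so the MI/RI libraries were the smaller ones. Markers of cardiomyocytes were present in every rat, and their summed level was 3219 to 10510 FPKM in sham rats and 21170 to 30371 FPKM in MI/RI rats, with 5 of 6 tested past the threshold and higher. The sham rats differed widely in this sum, with 10510 FPKM in sham replicate 1 and 3648 and 3219 FPKM in sham replicates 2 and 3. Sham replicate 2 and MI/RI replicate 3 stood apart in platelet markers, which summed to 71.8 and 66.6 FPKM there and to 16.1 to 21.1 FPKM in the other 4 rats. Results that rest on these 2 rats are given without them as well. Since RNA was taken from whole tissue, fewer cells of a type and less RNA per cell cannot be told apart.

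The regulators spanned a wide range of levels. In sham rats Plat was the highest, at 37.5 ± 17.8 FPKM (SD, n = 3), and its range did not overlap that of any other regulator. Vwf (12.1 ± 0.639), Anxa2 (9.11 ± 2.32), Thbd (8.38 ± 1.77), Procr (7.36 ± 1.28) and Tfpi (5.24 ± 1.54) followed, and each overlapped its neighbour in this order. Plaur (1.22 ± 0.506) and F3 (1.11 ± 0.366) were lower and overlapped each other, and Plau was the lowest, at 0.248 ± 0.0911 FPKM. In MI/RI rats Plat was again the highest and Plau again the lowest. The range of Plaur then overlapped that of Tfpi, and those of Anxa2, Thbd, Vwf and Procr overlapped from each gene to the next.

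**Figure D1:**
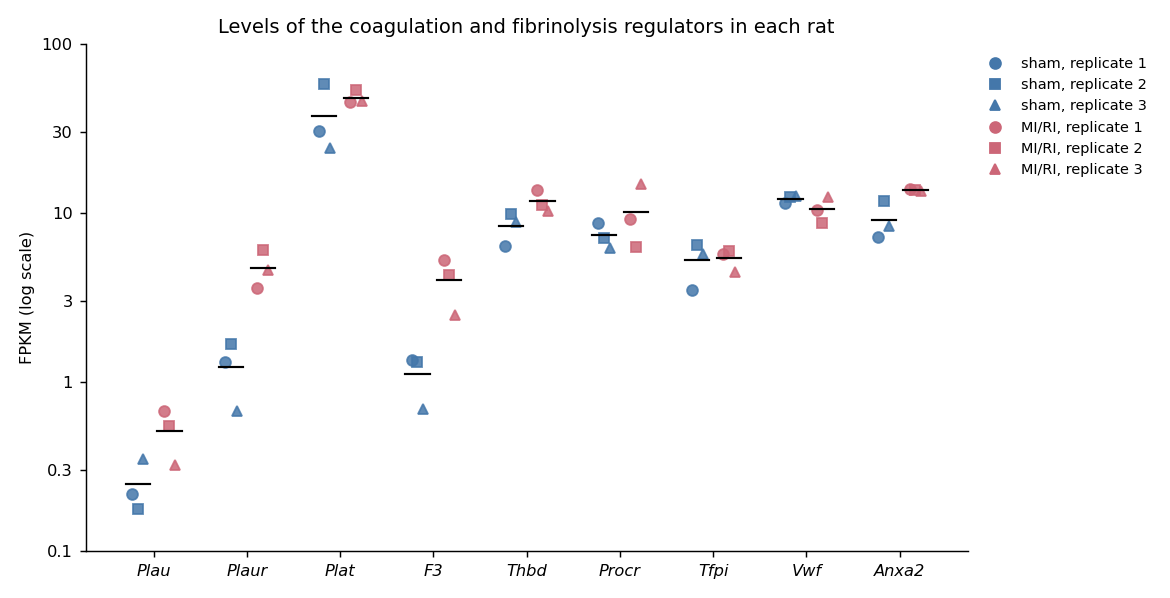
Level of each regulator in each rat, in FPKM on a log axis; symbols mark the rats, colours the groups, and black bars the group means (n = 3). Plaur, F3, Thbd and Anxa2 do not overlap between the groups, Plat is the highest gene in both and Plau the lowest.

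The comparison of MI/RI with sham rats asks which clotting regulators differ in the reperfused heart. F3, which starts clotting, and Plaur, the receptor of urokinase, rose, each to over 3 times its sham mean. The other 6 regulators tested did not pass the threshold, and Plau lay under the filter on low levels. The test was limma on log2(FPKM + 0.1) over 10942 genes with a mean of at least 0.5 FPKM, with Benjamini-Hochberg adjustment and a threshold of 0.05. Of all genes tested, 25.5% were called higher and 7.36% lower, so 2 of 8 regulators called higher is a share near the background and not a result about the regulators. The median log2 fold change was 0.47 over the 8 regulators and 0.29 over all genes tested.

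F3 was at 1.35, 1.30 and 0.693 FPKM in the sham rats and at 5.25, 4.29 and 2.49 FPKM in the MI/RI rats. Every MI/RI rat lay above every sham rat, and sham replicate 3 was the lowest of all. The mean rose 3.60-fold in FPKM, and the log2 fold change was 1.75 ± 0.34 (SE, adjusted p = 0.006 by limma). Of the genes tested, 5.69% had a larger log2 fold change. The values rest on 122 to 711 fragments per rat. The call of F3 held in all 18 alternatives that tested it, with a log2 fold change of 1.01 to 2.18.

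Plaur was at 1.31, 1.67 and 0.674 FPKM in the sham rats and at 3.60, 6.06 and 4.58 FPKM in the MI/RI rats. The groups did not overlap, and the lowest MI/RI rat was well above the highest sham rat. The mean rose 3.89-fold in FPKM, with a log2 fold change of 1.93 ± 0.33 (SE, adjusted p = 0.0043 by limma), and 4.15% of the genes tested had a larger one. Without the 2 rats with most platelet marker RNA the log2 fold change was 2.19 and the adjusted p by limma 0.0501, just above the threshold, with 2 rats per group left. Markers of neutrophils and monocytes, cells known to make Plaur and, for monocytes, F3, summed to 52.0 to 68.5 FPKM in sham rats and 78.4 to 144 FPKM in MI/RI rats, 3 of 6 tested being called higher and 1 lower, with all 8 markers detected. Summed markers of cardiomyocytes (3219 to 10510 FPKM in sham, 21170 to 30371 FPKM in MI/RI rats) and of fibroblasts (420 to 581 and 605 to 669 FPKM) were higher too. Of the cardiomyocyte markers 5 of 6 tested were called higher, and of the fibroblast markers 2 of 7, beside 25.5% of all genes tested. The part of any of these cell types in the rise of F3 and Plaur was not tested.

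Plau, the ligand of Plaur, was at 0.216, 0.177 and 0.351 FPKM in sham rats and at 0.673, 0.549 and 0.322 FPKM in MI/RI rats. The groups overlapped, since MI/RI replicate 3 was below sham replicate 3. With 31 to 87 fragments per rat, counting error alone came to 18.0% (SD) in the rat with the fewest. Without a filter on low levels its log2 fold change was 0.81 (adjusted p = 0.18 by limma). The spread between rats was larger than this counting error, with coefficients of variation of 36.7% in sham and 34.6% in MI/RI rats.

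Plat, the main activator in the vessel wall, was at 30.7, 57.7 and 24.2 FPKM in sham rats and at 45.2, 53.3 and 46.0 FPKM in MI/RI rats. The sham rats varied far more, with a coefficient of variation of 47.3% against 9.21%, and sham replicate 2 was the highest of the 6 rats. The log2 fold change was 0.46, with a 95% interval of -0.25 to 1.17 (adjusted p = 0.29 by limma). Without sham replicate 2, a rat with much platelet marker RNA, it was 0.82 (adjusted p = 0.06 by limma), and without sham replicate 3 it was 0.19 (adjusted p = 0.71 by limma). With both platelet-rich rats left out it was 0.85 (adjusted p = 0.13 by limma).

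Anxa2, which holds plasminogen and Plat at the cell surface, was at 7.24, 11.7 and 8.38 FPKM in sham rats and at 13.8, 13.6 and 13.4 FPKM in MI/RI rats. The groups did not overlap, and the MI/RI rats differed by a coefficient of variation of 1.54% only. The log2 fold change was 0.60, with a 95% interval of 0.07 to 1.14 and an adjusted p by limma of 0.077, so it did not pass the threshold. It passed with values rescaled to TPM (adjusted p = 0.041), among genes of at least 5 FPKM (0.043) and without sham replicate 2 (0.047), each by limma. Without both rats with most platelet marker RNA the log2 fold change was 0.81 and did not pass (adjusted p = 0.11 by limma). The sign turned under other scalings given below.

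Thbd, which binds thrombin on the endothelium, was at 6.41, 9.84 and 8.90 FPKM in sham rats and at 13.8, 11.2 and 10.2 FPKM in MI/RI rats. The groups did not overlap, but the lowest MI/RI rat was close to the highest sham rat. Its log2 fold change of 0.49 (95% interval -0.06 to 1.04, adjusted p = 0.15 by limma) did not pass the threshold. Together, Plaur, F3, Anxa2 and Thbd make 4 of the 8 regulators tested in which every MI/RI rat was above every sham rat, beside 37.2% of all genes tested.

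Procr, which presents protein C to the thrombin held by Thbd, was at 8.76, 7.09 and 6.23 FPKM in sham rats and at 9.19, 6.26 and 14.8 FPKM in MI/RI rats. The MI/RI rats spanned the whole sham range, and MI/RI replicate 3, the MI/RI rat with most platelet marker RNA, was the highest. The log2 fold change was 0.38 (95% interval -0.33 to 1.08, adjusted p = 0.38 by limma) and 0.06 without that rat. Without MI/RI replicate 2 it was 0.67 (adjusted p = 0.14 by limma). With both platelet-rich rats left out it was 0.04 (adjusted p = 0.95 by limma).

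Tfpi was at 3.51, 6.49 and 5.71 FPKM in sham rats and at 5.74, 5.92 and 4.49 FPKM in MI/RI rats. All 3 MI/RI rats lay within the sham range, and the log2 fold change was 0.07 (95% interval -0.53 to 0.68, adjusted p = 0.86 by limma). Vwf was at 11.4, 12.3 and 12.6 FPKM in sham rats and at 10.4, 8.76 and 12.5 FPKM in MI/RI rats. MI/RI replicates 1 and 2 were below all sham rats and replicate 3 within them. The log2 fold change of Vwf was -0.21 (95% interval -0.71 to 0.28, adjusted p = 0.48 by limma).

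**Figure D2:**
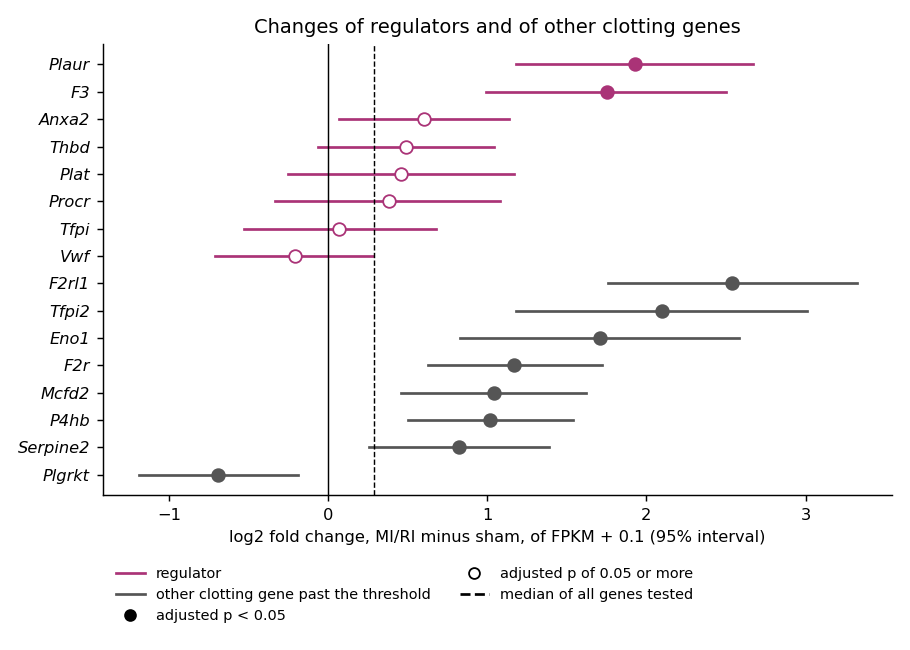
Log2 fold change (MI/RI minus sham) with its 95% interval for the 8 regulators tested and for the 8 other clotting genes past the threshold; filled points have an adjusted p under 0.05 by limma, and the dashed line is the median of all genes tested, 0.29. F3, at 1.75, and Plaur, at 1.93, are the regulators past the threshold, and the other 6 did not pass it.

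How the values are scaled decided the sign of most of the smaller differences. The deposited values have a median log2 fold change of 0.29 over all genes, which became 0.48 when each rat was rescaled to TPM, 0.04 when rats were centred on the median, -0.02 after quantile normalization and -0.46 when rescaled over genes other than the 13 mRNAs of the mitochondrial genome. F3 and Plaur were called higher under all of these, with the lowest log2 fold changes, 1.01 and 1.18, under the last. Under that scaling Thbd was at -0.29, Procr at -0.40, Plat at -0.33 and Anxa2 at -0.17, none past the threshold, and Vwf was called lower at -0.99 (adjusted p = 0.014 by limma). Quantile normalization gave the same signs, and Vwf at -0.87 (adjusted p = 0.027 by limma). Tfpi was at -0.70, -0.35 and -0.18 after rescaling without mitochondrial mRNAs, quantile normalization and centring.

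**Figure D3:**
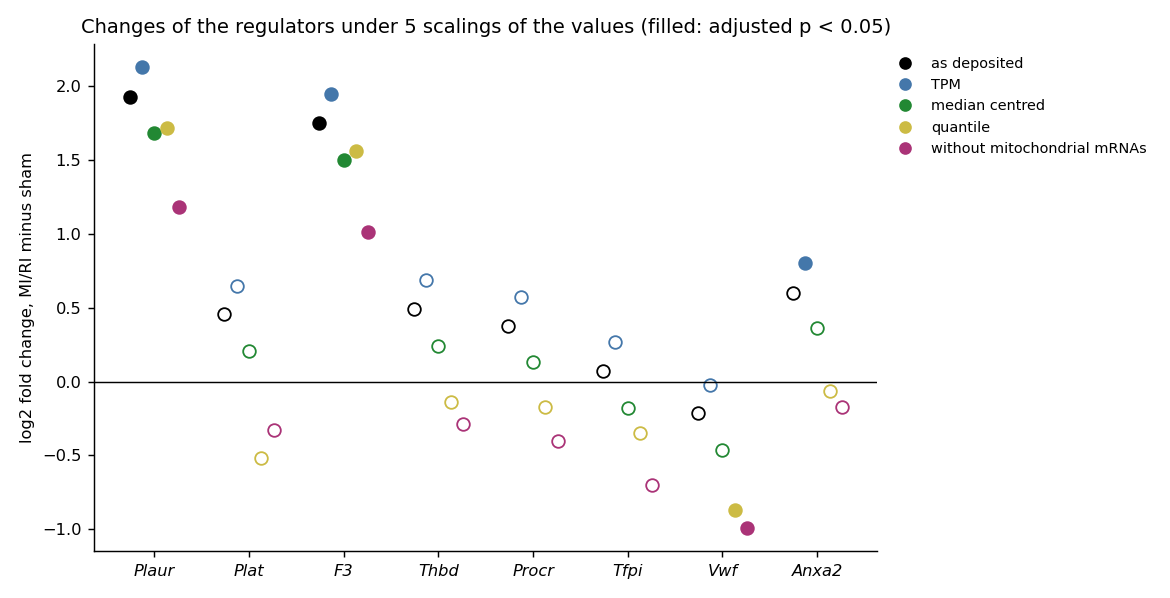
Log2 fold change (MI/RI minus sham) of the 8 regulators tested under 5 scalings of the values, shown by colour; filled points have an adjusted p under 0.05 by limma. F3 and Plaur are above 1 in all 5, while Thbd, Procr, Tfpi, Plat and Anxa2 lie on both sides of 0 and Vwf below it.

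A ratio of 2 genes in the same rat does not depend on the library's scaling, apart from the 0.1 FPKM added. Such log2 ratios were compared for 4 pairs by an exact permutation test (two-sided). Its smallest p in groups of 3 is 0.1, so no pair could pass 0.05. In 1 pair, F3 and Tfpi, the groups did not overlap.

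The ratio of F3 to its inhibitor Tfpi was 0.384, 0.201 and 0.121 in FPKM in sham rats and 0.915, 0.726 and 0.556 in MI/RI rats. Every MI/RI rat was above every sham rat. The log2 ratio was -2.14 ± 0.78 in sham and -0.47 ± 0.35 in MI/RI rats (SD, n = 3), a difference of 1.67 (exact permutation p = 0.1, adjusted over 4 pairs 0.4).

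The other 3 pairs overlapped between the groups. The log2 ratio of Plau to its receptor Plaur differed by -1.12 (exact permutation p = 0.2, adjusted 0.4), and 2 of 3 MI/RI rats were below all sham rats. Without sham replicate 3 the difference was -0.57. That of Anxa2 to its partner S100a10 differed by 0.49 (exact permutation p = 0.3, adjusted 0.4), by 0.89 after quantile normalization (exact permutation p = 0.1) and by 0.23 without MI/RI replicate 1. S100a10 itself was at 97.3, 123 and 127 FPKM in sham rats and 88.9, 153 and 142 FPKM in MI/RI rats, more than Anxa2 in every rat, with a log2 fold change of 0.12 (adjusted p = 0.77 by limma). Thbd to Procr differed by 0.12 (exact permutation p = 0.7, adjusted 0.7).

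**Figure D4:**
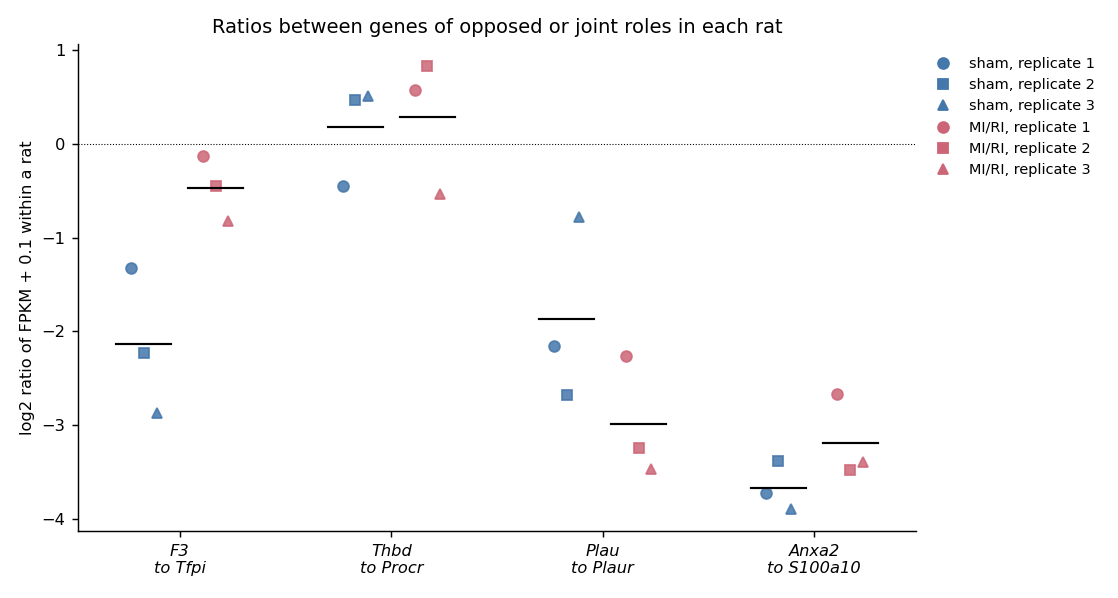
Log2 ratio of FPKM + 0.1 between 2 genes of the same rat for 4 pairs; symbols mark the rats, colours the groups and black bars the group means (n = 3). The groups are apart for F3 to Tfpi and overlap for the other 3 pairs.

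Thbd, Procr, Tfpi, Vwf and Plat are made largely by endothelium, so their levels were also set against the mean log2 level of 8 endothelial markers. That mean was 4.71 ± 0.22 in sham and 4.75 ± 0.09 in MI/RI rats (SD, n = 3). The markers' summed level was 226 to 296 FPKM in sham and 238 to 279 FPKM in MI/RI rats, and none of the 8 was called either way. Relative to them Thbd was at -1.87, -1.66 and -1.42 in sham rats and at -1.01, -1.31 and -1.28 in MI/RI rats. The groups did not overlap, and the difference was 0.45 (exact permutation p = 0.1, adjusted over 5 genes 0.5), or 0.23 (exact permutation p = 0.5) against Pecam1 and Cdh5 alone.

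The other 4 overlapped between the groups on this scale. Plat differed by 0.41 (exact permutation p = 0.3, adjusted 0.5), Procr by 0.33 (exact permutation p = 0.7, adjusted 0.88), Tfpi by 0.03 (exact permutation p = 0.9, adjusted 0.9) and Vwf by -0.26 (exact permutation p = 0.3, adjusted 0.5). After quantile normalization Tfpi differed by 0.47 (exact permutation p = 0.1, the smallest possible). MI/RI replicate 3 had the highest relative level of Procr, at -0.75, and sham replicate 1 the lowest of Tfpi, at -2.72.

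**Figure D5:**
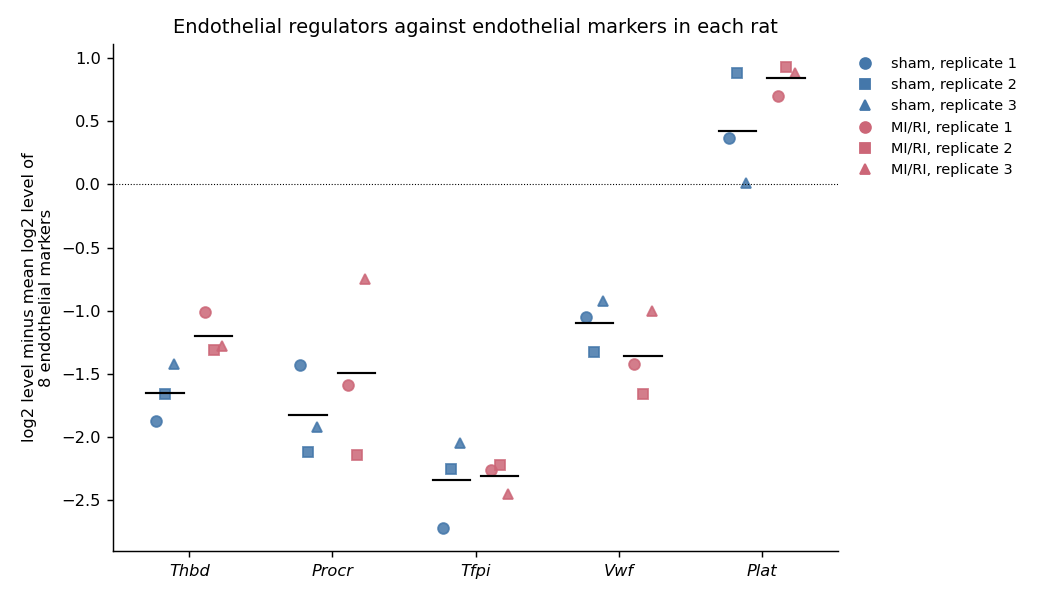
Log2 level of 5 regulators minus the mean log2 level of 8 endothelial markers in each rat; symbols mark the rats, colours the groups and black bars the group means (n = 3). Only Thbd does not overlap between the groups, and Plat is the only one above the markers' mean in every rat.

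Around the 9 regulators, 49 other genes of clotting and fibrinolysis were counted, of which 48 were in the table and 20 were above the filter. Of these 20, 7 were called higher and 1 lower, and their median log2 fold change was 0.61, beside 25.5% called higher, 7.36% called lower and a median of 0.29 over all genes tested. Among genes that act on plasminogen, 2 of 5 tested were called higher and 1 lower. The former were Eno1, at a log2 fold change of 1.71 (adjusted p = 0.011 by limma), a glycolytic enzyme that also binds plasminogen at cell surfaces, and Serpine2, at 0.82 (adjusted p = 0.033 by limma), an inhibitor of thrombin and urokinase. Plgrkt, a plasminogen receptor, fell by 0.69 on the log2 scale (adjusted p = 0.04 by limma). The call of Plgrkt was lost when the replicate number was used as a block, and 8 of 18 alternatives kept it. That of Serpine2 was kept in 10 of 19 and lost, among others, under median centring, quantile normalization, rescaling without mitochondrial mRNAs (lowest log2 fold change over all alternatives 0.04) and when any 1 of 4 of the 6 rats was left out. Eno1 kept its call in 16 of 19 and lost it, among others, after quantile normalization and without sham replicate 2.

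Of the clotting factors and the proteins that process them, 2 of 8 tested were called higher, a share near the 25.5% of all genes tested. They were Mcfd2, at a log2 fold change of 1.04 (adjusted p = 0.015 by limma), part of the receptor that carries factors V and VIII out of the endoplasmic reticulum, and P4hb, at 1.02 (adjusted p = 0.011 by limma), a protein disulfide isomerase with many other clients. Both calls were lost after rescaling without mitochondrial mRNAs and after quantile normalization. That of Mcfd2 was also lost without sham replicate 3. Their lowest log2 fold changes over all alternatives were 0.27 and 0.12. Fga, Fgb and Fgg, the chains of fibrinogen, and F9, clotting factors of the plasma that liver makes, were listed at 0 in all rats. F7, the partner of tissue factor, was listed at 0 in 5 of 6 rats, and F10 was at 0.121 to 0.206 FPKM.

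Of the anticoagulants and receptors, 3 of 7 tested were called higher, beside 25.5% of all genes tested. They were Tfpi2, an inhibitor of plasmin and of some clotting proteases, at a log2 fold change of 2.10 (adjusted p = 0.0062 by limma), F2rl1, the receptor PAR2 that the complex of tissue factor and factor VIIa cuts, at 2.54 (adjusted p = 0.0026 by limma), and F2r, the thrombin receptor PAR1, at 1.17 (adjusted p = 0.0077 by limma). F2rl1 was at 0.979, 1.06 and 0.358 FPKM in sham rats and at 5.14, 4.90 and 4.17 FPKM in MI/RI rats, so the groups lay far apart. Proc, the gene of protein C, was listed at 0 in all rats, and Plg, that of plasminogen, did not exceed 0.107 FPKM. The call of F2r was lost after rescaling without mitochondrial mRNAs. Without the 2 rats with most platelet marker RNA, 1 of the 7 higher calls was left, F2rl1, with 2 rats per group. Calls over all genes fell likewise in that fit, from 2790 to 226 higher of 10942, and Tfpi2 was just above the threshold, with an adjusted p by limma of 0.051.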

How the data were processed

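RNA of myocardium from 3 sham and 3 MI/RI rats was sequenced with a stranded total RNA kit. The authors deposited 1 table of FPKM values, and their processing notes name STAR and HTSeq without roles or versions. The genome build, the annotation and the total behind the FPKM values are not given in the sources used here. Rows of the same symbol were summed. The deposited FPKM values were put on the scale log2(FPKM + 0.1) and compared by limma 3.58.1 in R 4.3.3 (lmFit, eBayes with trend) for 10942 genes with a mean of at least 0.5 FPKM, with Benjamini-Hochberg adjustment and a threshold of 0.05. The study's methods state no test for the sequencing. The scripts were tested on simulated data. Errors of log2 fold changes are moderated SEs. The FPKM + 0.1 scale understates changes of low genes.

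Log2 ratios between pairs of genes and levels against endothelial markers were compared by two-sided exact permutation tests. Fragment counts were recovered as the smallest whole numbers that give each gene's values (tolerance 0.01 fragments). They came to 8915768 to 15499732 per rat and left out 43 genes, among them the most abundant. Counting error alone is known from these counts. The p-values by limma set a difference against the variation between rats, moderated over all genes tested, and do not measure that variation.

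The 9 regulators, the lists of 49 other clotting genes and of cell markers, and the tests were chosen with earlier results of these data known. Named genes were all 9 regulators, each listed clotting gene past the threshold with a log2 fold change of at least 1 in size, and S100a10, Plg, Proc, F7, F10, F2r and F2rl1. Serpine2, Plgrkt, and Fga, Fgb, Fgg and F9 as examples of genes at 0, were named after their values were seen. The results of 1 listed gene are not reported here. Platelet, neutrophil and monocyte, endothelial, cardiomyocyte, fibroblast, mesothelial, smooth muscle and red blood cell markers were summed by rat. Deviations of same-numbered sham and MI/RI rats from their group means correlated at 0.203, 0.117 and 0.118 across genes. Differently numbered pairs ranged from -0.185 to 0.12, the highest being sham replicate 3 with MI/RI replicate 2. That pair was above 2 of the same-numbered pairs, so these correlations do not show that the replicate numbers pair the rats. The study states no pairing, and the main tests were unpaired. An alternative fit used the replicate numbers as a block. Promoters came from RefSeq (GRCr8), which may not be the build of the files. Other alternatives were the pseudocount, the filter, the scaling, the trend, the choice of row and leaving out each rat. A voom fit in limma on the recovered counts and a fit without the 2 rats with most platelet marker RNA were added after seeing the data.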

Additional observations from a re-analysis of the deposited data

How the results depend on the processing

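The log2 fold change of F3 passed the threshold in 18 of 18 alternatives and that of Plaur in 17 of 18, the exception being the fit without the 2 rats with most platelet marker RNA. The regulators called higher numbered 2, and 3 in TPM, where Anxa2 was added. They numbered 1 among genes of at least 5 FPKM, where F3 and Plaur were not tested and Anxa2 was called, and 1 without the 2 platelet-rich rats. Leaving out 1 rat gave 2 to 3. Regulators called lower numbered 0, and 1 (Vwf) after rescaling without mitochondrial mRNAs and after quantile normalization. All genes called higher and lower numbered 2790 and 805 as reported, 793 and 2857 after rescaling without mitochondrial mRNAs (21.7% of calls higher, against 77.6%), 1441 and 1559 after quantile normalization (48.0%), 2020 and 1554 after centring on the median (56.5%), 3449 and 504 in TPM (87.3%), 1892 and 166 at 5 FPKM or more (91.9%), 226 and 36 without the 2 platelet-rich rats, and 1528 to 2557 and 309 to 881 when 1 rat was left out, with the fewest higher without sham replicate 3 (1528) and the fewest lower without sham replicate 2 (309) and sham replicate 3 (359). Where 1 group is left with 2 rats, the spread is pooled over both groups.

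Of the other clotting genes, 7 were called higher, 3 after rescaling without mitochondrial mRNAs and 3 after quantile normalization, and 1 without the 2 platelet-rich rats. The count was 9 in TPM, 8 at 5 FPKM or more, 6 without a filter and 6 after centring, and 5 to 8 with 1 rat left out. Called lower was 1, with 4, 2 and 3 after rescaling without mitochondrial mRNAs, centring and quantile normalization, and 0 without a filter, at 5 FPKM or more, in TPM, without the 2 platelet-rich rats, in voom on recovered counts, and with 1 rat left out in 5 of 6 cases (0 to 1). With the replicate block 3085 genes were called higher and 895 lower, and Plgrkt was lost, leaving 0 listed genes called lower by limma, while 7 were called higher; no other call on the regulators or the list changed.

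Signs of differences past no threshold turned as follows. After rescaling without mitochondrial mRNAs and after quantile normalization, Plat came to -0.33 and -0.52, Thbd to -0.29 and -0.14, Procr to -0.40 and -0.17, Anxa2 to -0.17 and -0.06, and Tfpi to -0.70 and -0.35. Tfpi was also at -0.18 after centring and ran from -0.19 (without sham replicate 1) to 0.25 with 1 rat left out. With 1 rat left out, the log2 ratio of Thbd to Procr ran from -0.20 to 0.53, Procr against endothelial markers from -0.04 to 0.66 and Tfpi from -0.16 to 0.18, and against Pecam1 and Cdh5 alone Tfpi was at -0.19, while quantile normalization gave 0.47. The other 3 log2 ratios and Thbd, Vwf and Plat against endothelial markers kept their sign in every alternative. Plau was under the filter, so its ratio to Plaur has no quantile value. The cause of these shifts was not tested. Depth limits Plau most, with 31 fragments in one rat.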

Other observations

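F13a1, F5 and F2rl2, clotting genes outside the 9 regulators, were highest in the same 2 rats as platelet markers. Other listed genes showed this too, among them Ggcx, Adamts13 and F2rl3. The share of all genes highest in these rats was not counted, so whether the pattern sets the genes named apart is not known. All 6 platelet markers with any value were highest, within their group, in sham replicate 2 and MI/RI replicate 3. Pf4, platelet factor 4, was at 62.4 and 50.5 FPKM in those rats and at 14.0 to 18.7 FPKM in the others. F13a1, the catalytic chain of factor XIII that crosslinks fibrin and is also made by macrophages, was at 4.26 and 5.78 FPKM there and at 2.35 to 2.69 FPKM elsewhere. F5, the gene of factor V, was at 0.369 and 0.851 FPKM against 0.0939 to 0.196 FPKM. F2rl2, the thrombin receptor PAR3, was at 1.05 and 1.55 FPKM against 0.0277 to 0.539 FPKM. Vwf, which platelets and endothelium share, was at 12.3 and 12.5 FPKM in those rats and at 8.76 to 12.6 FPKM in the others, so it did not set them apart. F13a1, F5, F2rl2, Ggcx, Adamts13 and F2rl3 were chosen after their values were seen, and the part of platelets in their levels was not tested.

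F8 and Pros1 did not pass the threshold in the deposited values, and their calls depended on the scaling. F8, the gene of factor VIII that Vwf carries, was at 2.35, 4.40 and 2.22 FPKM in sham rats and at 2.05, 1.86 and 1.83 FPKM in MI/RI rats, without overlap, with a log2 fold change of -0.55 (adjusted p = 0.16 by limma). Pros1, protein S, the cofactor of activated protein C, was at 4.69, 6.15 and 4.63 FPKM in sham rats and at 3.63, 4.27 and 4.53 FPKM in MI/RI rats, with a log2 fold change of -0.30 (adjusted p = 0.32 by limma). F8 was called lower by limma after rescaling without mitochondrial mRNAs, centring on the median and quantile normalization, and Pros1 after the first and the last of these. Both were named after their values were seen.

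Of the other marker lists, fibroblast markers summed to 420 to 581 FPKM in sham rats and 605 to 669 FPKM in MI/RI rats (2 of 7 tested called higher), and smooth muscle markers to 102 to 288 FPKM and 152 to 340 FPKM (1 higher and 2 lower of 7). Over all genes tested, 25.5% were called higher and 7.36% lower. Red blood cell markers summed to 1130 to 1262 FPKM and 605 to 1750 FPKM (0 of 2 called by limma), and mesothelial markers to 4.03 to 6.72 FPKM and 4.65 to 7.82 FPKM (0 of 1 called by limma).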
